A study of Mus musculus with 2 samples.

Results

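The 10 genes described here are markers of the endothelium that lines the liver sinusoids, taken by symbol from the 24421 genes of the series. They form a sinusoidal scavenger group of 5 genes (Stab1, Stab2, Lyve1, Clec4g and Fcgr2b) and a pan-endothelial group of 5 genes (Kdr, Eng, Pecam1, Cdh5 and Tek), and the question put to them was whether both groups differed alike between the libraries. Liver RNA came from male C57BL/6 mice fed a high-fat diet (HFD) for 12 weeks from 6 weeks of age. 1 library was labelled as liver-specific knockout (LKO), with the genotype RORalpha f/f:Alb-Cre, and 1 library was the control, RORalpha f/f. Both genotypes carry the floxed Rora alleles. Cre was driven by the albumin promoter, which acts in hepatocytes, so endothelial cells are not the cells that the knockout was built to change. As each genotype has 1 library, differences have no replicate check and carry no p-value, and every ratio compares these 2 libraries and not the genotypes. In whole liver, fewer cells of a type and less RNA per cell cannot be told apart.

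Sinusoidal endothelial cells form a fenestrated wall without an organized basement membrane, through which plasma reaches hepatocytes. They are among the most active scavenger cells of the body and clear denatured matrix, modified lipoproteins and immune complexes from blood through endocytic receptors. Pan-endothelial genes instead encode the growth factor receptors and junction proteins that endothelium of most vessels shares. During chronic injury these cells can lose fenestrae and scavenger receptors and take on features of continuous capillaries, a process called capillarization.

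Counts summed to 131843686 in the library labelled LKO and 128201591 in the control library, and the members held between 434 and 40352 counts each. Levels are counts relative to library size (CPM) after scaling by TMM, a trimmed mean of log ratios over all genes, and intervals are 95% exact intervals that cover counting error only. A gene counted as measured where its mean reached 1 CPM and its summed count 20, which held for 11137 genes, among them all 10 members. Rora itself, the targeted gene, had 3677 counts in the library labelled LKO and 3701 in the control library, or 24.1 and 33.4 CPM. As its total was not lost, results are worded by label and not as an effect of losing RORα.

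The sinusoidal scavenger genes did not share a direction. Stab1 and Stab2 were higher in the library labelled LKO, Clec4g and Fcgr2b were lower, and Lyve1 was near equal. Stab1 encodes stabilin-1, a scavenger receptor that macrophages also carry. It lies on chromosome 14 from 31139013 to 31168641 on the minus strand (mm10). Stab1 had 3079 counts (20.2 CPM) in the library labelled LKO and 1652 counts (14.9 CPM) in the control library, 1.35-fold (interval 1.28 to 1.44) higher. Stab2 encodes stabilin-2, the endocytic receptor for hyaluronan of these cells. It spans chromosome 10 from 86841198 to 87008025 on the minus strand. Stab2 had 4738 counts (31.1 CPM) in the library labelled LKO and 2444 counts (22.05 CPM) in the control library, 1.41-fold (interval 1.34 to 1.48) higher. The counting intervals of the stabilin ratios overlapped.

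Lyve1, a hyaluronan receptor gene also expressed in lymphatic endothelium, lies on chromosome 7 from 110850607 to 110863239 on the minus strand. It was the least abundant member, with 577 counts (3.78 CPM) in the library labelled LKO and 434 counts (3.92 CPM) in the control library. The ratio was 0.967 (interval 0.852 to 1.10), so a difference was not detectable at this depth. Clec4g encodes the C-type lectin LSECtin and lies on chromosome 8 from 3707064 to 3720651 on the minus strand. Clec4g had 3169 counts (20.8 CPM) in the library labelled LKO and 2920 counts (26.3 CPM) in the control library, 1.27-fold (interval 1.20 to 1.33) lower. Fcgr2b encodes the inhibitory IgG receptor, which clears small immune complexes in the sinusoid and is also carried by B cells and macrophages. It lies on chromosome 1 from 170958617 to 170976547 on the minus strand. Fcgr2b had 7462 counts (48.9 CPM) in the library labelled LKO and 6967 counts (62.9 CPM) in the control library, 1.28-fold (interval 1.24 to 1.33) lower. Of the 50-base words in its longest transcript, 8.60% also occur in transcripts of other genes, so a part of its reads has an uncertain origin. The close relative Fcgr3 shares 4.96% and had 576 counts in the library labelled LKO and 717 in the control library. Cplx2 and Rab3c, genes of regulated exocytosis, share 2.93% and 1.88%. Cplx2 had 544 counts in the library labelled LKO and 282 in the control library. Rab3c had 190 counts in the library labelled LKO and 59 in the control library. With total-count scaling the ratios of Lyve1, Clec4g and Fcgr2b turned positive, at log2 values of 0.37, 0.08 and 0.06.

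The promoters of the pairs that went opposite ways are shown so that their letters can be compared. RORα binds the half-site AGGTCA after an A/T-rich stretch, and capitals mark AGGTCA on either strand (TGACCT on the other). The windows are from RefSeq (GRCm38.p6), 250 bases before to 50 bases after each start, all on the minus strand, at chr10:87007893-87008192 for Stab2, chr14:31168592-31168891 for Stab1, chr8:3720602-3720901 for Clec4g and chr1:170976022-170976321 for Fcgr2b.
Stab2: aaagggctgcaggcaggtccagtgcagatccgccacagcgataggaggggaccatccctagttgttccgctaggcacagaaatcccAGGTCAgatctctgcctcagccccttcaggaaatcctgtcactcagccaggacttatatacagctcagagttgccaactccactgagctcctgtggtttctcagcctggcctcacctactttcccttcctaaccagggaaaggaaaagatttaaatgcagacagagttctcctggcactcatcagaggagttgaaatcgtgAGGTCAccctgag
Stab1: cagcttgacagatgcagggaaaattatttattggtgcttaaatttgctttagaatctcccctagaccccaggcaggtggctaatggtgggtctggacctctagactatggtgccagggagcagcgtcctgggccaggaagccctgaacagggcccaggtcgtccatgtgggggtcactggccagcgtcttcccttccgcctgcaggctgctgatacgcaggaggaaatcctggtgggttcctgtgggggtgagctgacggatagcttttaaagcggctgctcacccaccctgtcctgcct
Clec4g: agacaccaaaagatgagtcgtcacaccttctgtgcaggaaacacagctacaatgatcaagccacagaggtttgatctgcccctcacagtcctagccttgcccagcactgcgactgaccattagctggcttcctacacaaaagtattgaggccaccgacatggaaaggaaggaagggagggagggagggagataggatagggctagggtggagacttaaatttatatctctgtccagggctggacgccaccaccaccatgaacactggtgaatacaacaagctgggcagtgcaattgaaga
Fcgr2b: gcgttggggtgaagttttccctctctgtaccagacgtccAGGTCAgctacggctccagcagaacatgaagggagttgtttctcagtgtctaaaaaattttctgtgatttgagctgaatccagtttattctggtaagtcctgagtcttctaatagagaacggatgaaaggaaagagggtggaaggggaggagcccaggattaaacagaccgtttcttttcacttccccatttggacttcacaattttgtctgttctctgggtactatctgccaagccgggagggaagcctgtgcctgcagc
AGGTCA occurred 2 times in the Stab2 window and 1 time in the Fcgr2b window, and 0 times in those of Stab1 and Clec4g. Each pair thus held 1 window with the letters and 1 without them. Of the 7 members with an entry, 2 held AGGTCA, while 16.3% of all 32851 promoter windows did. Entries existed for Stab1, Stab2, Clec4g, Fcgr2b, Kdr, Eng and Tek. GATAA, the core that GATA factors such as the sinusoidal regulator GATA4 bind, occurred in 1 of the 7 windows, that of Tek, and in 25.4% of all windows (TTATC on the other strand). AGGAAG, a core of ETS factor sites, occurred in 4 of the 7, those of Stab1, Stab2, Clec4g and Eng, and in 35.4% of all windows (CTTCCT on the other strand). These are matches of letters, not sites of binding.

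**Figure D1:**
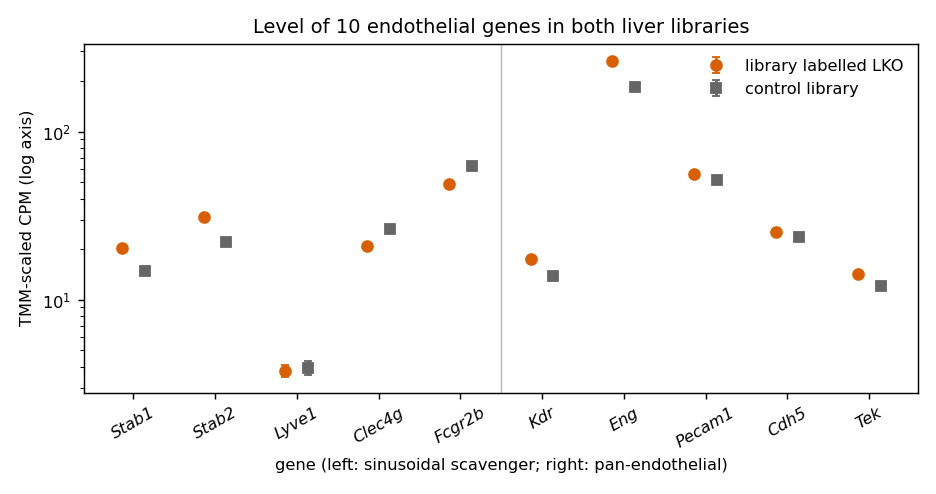
TMM-scaled CPM (log axis) of each gene in the library labelled LKO (circles) and the control library (squares), with 95% Poisson intervals of the counts where they exceed the symbol. Stab1 and Stab2 sit higher in the library labelled LKO, Clec4g and Fcgr2b lower, and Eng stands above all others at 265 CPM in the library labelled LKO and 185 CPM in the control library.

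All 5 pan-endothelial genes had a positive log2 ratio, by 0.09 to 0.51, as did 5540 of the 11137 measured genes. Among receptors, Kdr encodes the main signalling receptor for VEGF-A (VEGFR2) and lies on chromosome 5 from 75932827 to 75978458 on the minus strand. Kdr had 2646 counts (17.4 CPM) in the library labelled LKO and 1529 counts (13.8 CPM) in the control library, 1.26-fold (interval 1.18 to 1.34) higher. Tek encodes TIE2, the angiopoietin receptor, on the plus strand of chromosome 4 from 94739289 to 94874976. Tek had 2163 counts (14.2 CPM) in the library labelled LKO and 1338 counts (12.1 CPM) in the control library, 1.18-fold (interval 1.10 to 1.26) higher. Eng encodes endoglin, a co-receptor for BMP9 and TGF-beta that stellate cells and macrophages can also express, on the plus strand of chromosome 2 from 32646595 to 32682669. Eng had 40352 counts (265 CPM) in the library labelled LKO and 20557 counts (185 CPM) in the control library, 1.43-fold (interval 1.40 to 1.45) higher, the largest ratio of the 10 genes with TMM scaling.

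The junction genes lay closest to 1 in this group. Pecam1 encodes the adhesion molecule CD31, which platelets and leukocytes also carry, on chromosome 11 from 106654217 to 106750628 on the minus strand. Pecam1 had 8518 counts (55.9 CPM) in the library labelled LKO and 5689 counts (51.3 CPM) in the control library, 1.09-fold (interval 1.05 to 1.13) higher. Cdh5 encodes VE-cadherin of endothelial adherens junctions, on the plus strand of chromosome 8 from 104101625 to 104144511. Cdh5 had 3834 counts (25.1 CPM) in the library labelled LKO and 2610 counts (23.5 CPM) in the control library, 1.07-fold (interval 1.02 to 1.12) higher. If each read had been counted 2 times, the interval of Cdh5 would run from 0.995 to 1.15 and include 1.

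None of the differences was large beside those of other genes. Of the 10 members, 0 were at least 1.5-fold higher and 0 at least 1.5-fold lower, while 10.5% of the 11137 measured genes were that much higher and 9.76% that much lower in the library labelled LKO. The members' ratios lay between the percentiles 20.04 (Fcgr2b) and 86.9 (Eng) of all measured genes. With total-count scaling, which raises every log2 ratio by 0.42, Stab1, Stab2, Kdr, Eng and Tek passed 1.5-fold higher and 0 members passed lower. On that scale 34.3% of measured genes passed higher and 2.59% lower.

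**Figure D2:**
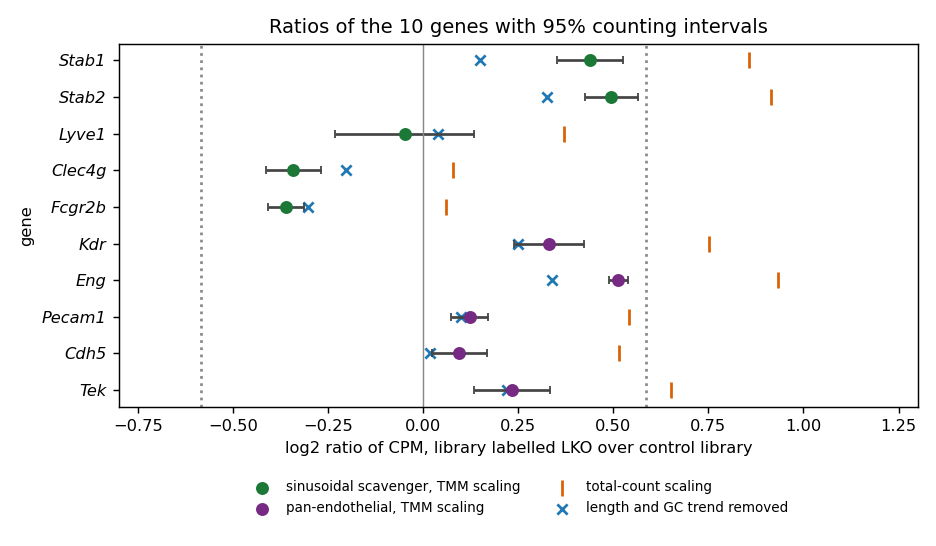
Log2 ratio of each gene (library labelled LKO over control library) with TMM scaling and its 95% counting interval (circles), with total-count scaling (orange ticks) and with the length and GC trend of all genes taken out (crosses). Dotted lines mark 1.5-fold, and all 10 circles lie between them.

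The median and the summed count of the scavenger genes, though not each gene, stood lower relative to those of the pan-endothelial genes in the library labelled LKO. The ratios of Stab1 and Stab2 lay above those of 4 of the 5 pan-endothelial genes, all but Eng. The median log2 ratio was -0.05 for the scavenger genes and 0.23 for the pan-endothelial genes, against -0.003 over all measured genes, and the difference of the group medians was -0.28. This difference is the same under every scaling between libraries, but the scavenger median on its own turned to 0.37 with total-count scaling and to 0.07 with totals that leave out the 20 most abundant genes. The scavenger median is that of Lyve1, and the scavenger mean was 0.04. The scavenger ratios spread more widely, from -0.36 to 0.50, than the pan-endothelial ratios, from 0.09 to 0.51, and the groups overlapped.

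Counts within a library need no scaling between libraries. In the library labelled LKO the scavenger genes summed to 19025 counts and the pan-endothelial genes to 57513, or a quotient of 0.331 (interval 0.325 to 0.336). In the control library they summed to 14417 and 31723, a ratio of 0.454 (interval 0.446 to 0.464). The ratio in the library labelled LKO was 0.728 (interval 0.709 to 0.747) times that in the control library. Eng alone held 70.2% of the pan-endothelial counts in the library labelled LKO and 64.8% in the control library. Without Eng the scavenger to pan-endothelial ratios were 1.11 (interval 1.09 to 1.13) in the library labelled LKO and 1.29 (interval 1.26 to 1.32) in the control library, and their quotient was 0.859 (interval 0.831 to 0.887). Fcgr2b held the most scavenger counts, 7462 of 19025 in the library labelled LKO and 6967 of 14417 in the control library. The summed contrast thus rests largely on Eng and Fcgr2b, and a ratio that leaves out both was not computed.

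Set against the sum of Kdr, Pecam1, Cdh5 and Tek in the same library, the scavenger genes again went both ways. On the log2 scale Stab1 was higher by 0.28 and Stab2 by 0.34 in the library labelled LKO, whereas Lyve1 stood at -0.21, Clec4g at -0.50 and Fcgr2b at -0.52. Stab1 and Stab2 together had 7817 counts against 10631 for Clec4g and Fcgr2b in the library labelled LKO, which is 0.735 (interval 0.714 to 0.757). The same ratio was 0.414 (interval 0.399 to 0.430) in the control library, with 4096 and 9887 counts. It was thus 1.77 times (interval 1.69 to 1.86) higher in the library labelled LKO, a grouping chosen after the values were seen.

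Transcript length moved with these ratios. The longest annotated transcripts of Stab1 and Stab2 have 7999 and 8228 bases, and those of Lyve1, Clec4g and Fcgr2b have 2893, 1442 and 3544. Among measured genes with a transcript shorter than 1500 bases the median log2 ratio was -0.27 (1356 genes), and among those of 6000 bases or more it was 0.13 (1501 genes). Across 10731 measured genes Spearman's rho between length and log2 ratio was 0.24, and across the 10 members, which share the same 2 libraries, it was 0.54. Once this trend and that with GC content were taken out, the log2 ratios were 0.15 for Stab1, 0.32 for Stab2, 0.04 for Lyve1, -0.20 for Clec4g and -0.30 for Fcgr2b. The pan-endothelial genes then ran from 0.02 (Cdh5) to 0.34 (Eng), and the difference of the group medians was -0.18. Fcgr2b and Eng have transcripts of like length, 3544 and 3422 bases, and lay at opposite ends of the 10 ratios, -0.36 and 0.51. Their GC content differed, at 45.4% and 57.4%, so this pair, picked after the values were seen, is alike in length only. The part of length and GC content in the ratios was not tested.

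**Figure D3:**
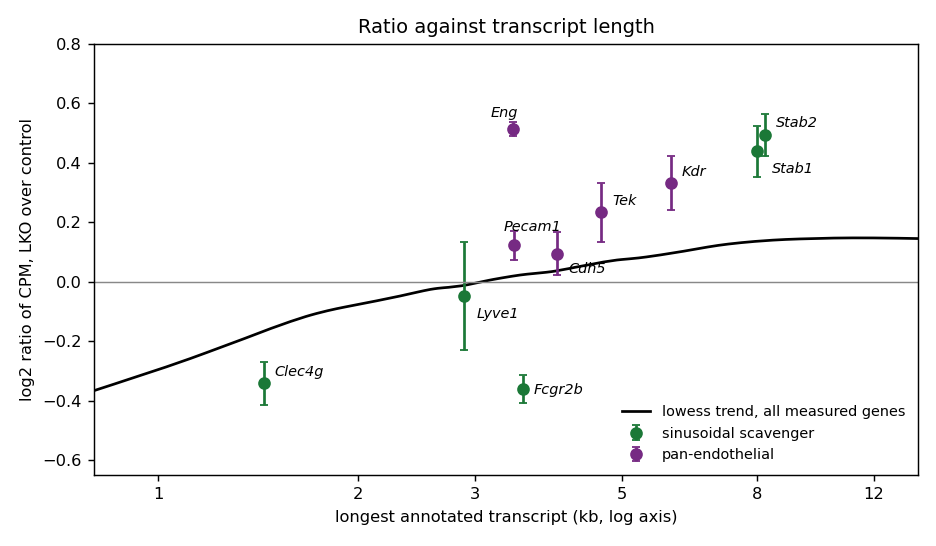
Log2 ratio of each gene, library labelled LKO over control library, with 95% counting intervals, against the length of its longest annotated transcript in kb (log axis), with the lowess trend over all measured genes as a line. Stab1 and Stab2, the longest, lie above the line and Clec4g lies below it. Eng and Fcgr2b lie far above and far below it at almost the same length, but differ in GC content.

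Levels between genes were compared as CPM per kb of the longest transcript. In the library labelled LKO the order was Eng at 77.3, Pecam1 at 16.2, Clec4g at 14.4, Fcgr2b at 13.8, Cdh5 at 6.29, Stab2 at 3.78, Tek at 3.05, Kdr at 2.93, Stab1 at 2.52 and Lyve1 at 1.31 CPM per kb. In the control library it was Eng at 54.2, Clec4g at 18.3, Fcgr2b at 17.7, Pecam1 at 14.9, Cdh5 at 5.89, Stab2 at 2.68, Tek at 2.59, Kdr at 2.33, Stab1 at 1.86 and Lyve1 at 1.35 CPM per kb. The order differed between the libraries only in the place of Pecam1 relative to Clec4g and Fcgr2b, above Clec4g and Fcgr2b in the library labelled LKO and below both in the control library. Counting intervals of neighbours in the order overlapped for Clec4g and Fcgr2b in both libraries, for Tek and Kdr in the library labelled LKO and for Stab2 and Tek in the control library. Eng has 3 curated RefSeq transcripts, Pecam1 4, Tek 3, Kdr and Fcgr2b 2 each, and the others 1. If a read was counted once per transcript, the per-length level of Eng would be 25.8 CPM per kb in the library labelled LKO and 18.1 in the control library, where Clec4g at 18.3 would equal it within counting error. Exons of Eng overlap those of Fpgs on the opposite strand, and exons of Stab1 those of Nt5dc2, but only 0.0296% and 0.792% of their 50-base words are shared.

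Further genes of sinusoidal identity came from a list of other markers. Of 12 listed genes all 12 were measured, of which 0 passed 1.5-fold in either direction, and the median log2 ratio was 0.12. With total-count scaling 5 passed upward and 0 downward, at a median of 0.54, where the median of all measured genes was 0.42. Over all measured genes 10.5% passed upward and 9.76% downward with TMM scaling. On the total-count scale 34.3% and 2.59% of them did. Dnase1l3, which encodes a secreted DNase and was the most abundant, stood at 73.3 CPM in the library labelled LKO and 64.8 CPM in the control library. Maf, a transcription factor gene of these cells, and the plexin gene Plxnc1 had the highest log2 ratios at 0.37 and 0.35. The lowest were those of the podoplanin receptor gene Clec1b at -0.38 and the receptor gene Gpr182 at -0.19, which both turn positive with total-count scaling. The difference of the group medians was -0.14 when the other pan-endothelial list took the place of the 5 members. The median of the 12 other sinusoidal genes, 0.12, did not lie below that of the other pan-endothelial list, 0.09.

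That list of other pan-endothelial genes had 19 of 22 genes measured, and 0 passed 1.5-fold upward and 1 downward, at a median of 0.09. With total-count scaling 7 passed upward and 1 downward, at a median of 0.51. The shares of all measured genes were 10.5% upward and 9.76% downward with TMM scaling. They were 34.3% and 2.59% with total-count scaling, at a median of 0.42. Of the 19 log2 ratios with TMM scaling 10 were positive and 9 negative, at a mean of -0.03, so the list did not share a direction. The downward call was S1pr1, which encodes the receptor for sphingosine 1-phosphate that stabilizes endothelial junctions. S1pr1 stood at 14.9 CPM in the library labelled LKO and 33.9 CPM in the control library, 2.27-fold (interval 2.15 to 2.39) lower. Sox17 and Sox7 encode related endothelial transcription factors and had log2 ratios of -0.51 and 0.54. Ptprb, the phosphatase gene VE-PTP that acts on TIE2 and VE-cadherin and the most abundant of the list, stood at 42.6 CPM in the library labelled LKO and 31.4 CPM in the control library, with a log2 ratio of 0.44.

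Genes of continuous capillaries and their basement membrane went further apart. Of 13 listed genes 10 were measured, of which 4 passed 1.5-fold upward and 1 downward, at a median of 0.18. Col4a1, a basement membrane collagen gene that stellate cells express too, was 2.41-fold (interval 2.17 to 2.69) higher. Its partner Col4a2 was higher by 2.16-fold (interval 1.85 to 2.53). Plvap, which encodes the protein of fenestral diaphragms, was 1.91-fold higher and Vwf, the von Willebrand factor gene, 1.58-fold higher. As a gene of fenestral diaphragms, Plvap does not mark continuous capillaries alone, though it is among the 4 upward calls. Ly6a, the Sca-1 gene and the most abundant of the list, was 1.74-fold (interval 1.67 to 1.82) lower, at 23.9 CPM in the library labelled LKO and 41.7 CPM in the control library. The laminin gene Lama4 had a log2 ratio of -0.42. With total-count scaling 5 were higher and 0 lower by 1.5-fold. Of all measured genes 10.5% were higher and 9.76% lower with TMM scaling, and 34.3% and 2.59% with total-count scaling.

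**Figure D4:**
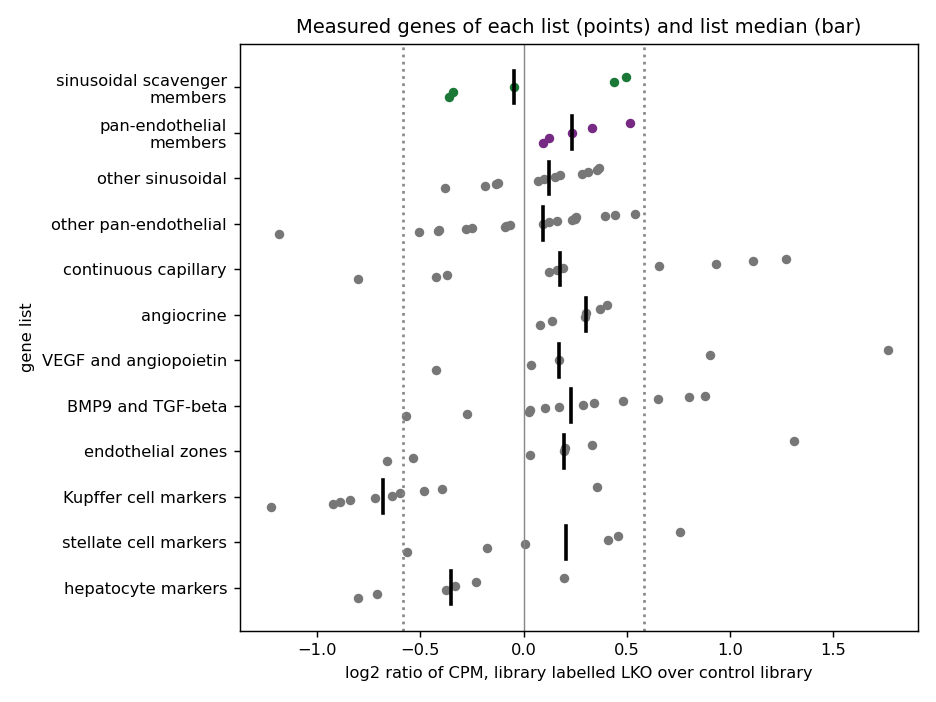
Log2 ratio (library labelled LKO over control library) of each measured gene (points) by list, with the list median (bar). Dotted lines mark 1.5-fold; the medians of the lists from the sinusoidal scavenger members down to the endothelial zones lie between -0.05 and 0.30, and that of the Kupffer cell markers at -0.68.

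The ligands and partners of the pan-endothelial receptors were read next to them. Of 8 VEGF and angiopoietin genes 5 were measured, of which 2 passed 1.5-fold upward and 0 downward, at a median of 0.17. With total-count scaling 3 and 0 did. The shares of all measured genes were 10.5% and 9.76%, and 34.3% and 2.59% with total-count scaling. Vegfa, the ligand of KDR, stood at 382 CPM in the library labelled LKO and 339 CPM in the control library, a log2 ratio of 0.17. Vegfb, a ligand of VEGFR1, was 1.87-fold (interval 1.80 to 1.94) higher. The co-receptor gene Nrp2 was 3.39-fold (interval 3.26 to 3.54) higher, while Nrp1 had a log2 ratio of 0.04 and the VEGFR3 ligand gene Vegfc one of -0.43. The TIE2 ligand genes Angpt1 and Angpt2 were below the filter, with 36 and 28 counts in the library labelled LKO and 10 and 70 in the control library.

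Of 13 genes of BMP9 and TGF-beta signalling, in which endoglin acts, 12 were measured, of which 3 passed 1.5-fold upward and 0 downward, at a median of 0.23. On the total-count scale 7 passed upward and 0 downward, at a median of 0.65. All measured genes passed upward and downward in 10.5% and 9.76% with TMM scaling. On the total-count scale these shares were 34.3% and 2.59%, at a median of 0.42. Gdf2, which encodes BMP9 and is expressed mainly by stellate cells in liver, was 1.84-fold (interval 1.61 to 2.10) higher. The receptor gene Tgfbr2 was 1.74-fold (interval 1.64 to 1.85) higher and Id1, a target gene of BMP signalling, 1.57-fold higher. Acvrl1, which encodes ALK1, the signalling receptor for BMP9, had a log2 ratio of -0.57, and Tgfbr1 one of -0.28 that is positive under total-count scaling, so the receptor genes did not share a direction. Id2, the most abundant, had a log2 ratio of 0.03.

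Of 10 angiocrine genes, through which endothelial or stellate cells signal to hepatocytes, 6 were measured. All 6 had a positive log2 ratio, as did 5540 of the 11137 measured genes. Of the 6 genes 0 passed 1.5-fold, and the median was 0.30. On the total-count scale 4 of the 6 passed upward, at a median of 0.72. The shares of all measured genes were 10.5% upward and 9.76% downward with TMM scaling. They were 34.3% and 2.59% on the total-count scale, at a median of 0.42. Hgf, the hepatocyte growth factor gene, stood at 12.6 CPM in the library labelled LKO and 9.49 CPM in the control library, a log2 ratio of 0.40. Bmp2 followed at 0.37, and Bmp6, the inducer of hepcidin, and the Notch ligand gene Jag1 were lowest at 0.14 and 0.08. Among 7 genes that differ along the portal to central axis of the endothelium, 1 passed 1.5-fold upward and 1 downward, at a median of 0.20. With total-count scaling 4 and 0 did, beside the same shares of all measured genes. Cdh13, a cadherin gene, was 2.48-fold (interval 2.05 to 3.01) higher and Msr1, a scavenger receptor gene that macrophages share, 1.58-fold lower, a call lost on the total-count scale. Thbd and Efnb2 had log2 ratios of 0.33 and -0.54, and Ltbp4, the most abundant, one of 0.03.

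Markers of other cell types that share members were read beside those members, and their directions matched in some cases and not in others. Of 11 Kupffer cell markers 10 were measured, with 7 at least 1.5-fold lower and 0 higher, and with total-count scaling 1 lower and 1 higher. Of all measured genes 9.76% were that much lower and 10.5% higher, and with total-count scaling 2.59% lower and 34.3% higher. Their summed level was 111 CPM in the library labelled LKO and 174 CPM in the control library, and none was at 0. Timd4, Cd5l and Clec4f were 2.34-fold, 1.90-fold and 1.85-fold lower, and C1qb, the most abundant, had a log2 ratio of -0.48. Cd163 went the other way, 1.28-fold (interval 1.12 to 1.46) higher, the 1 measured marker of this list with a positive log2 ratio. Kupffer cells also express Fcgr2b, which was lower, while Stab1, another gene that macrophages carry, was higher. The part of these cells in either ratio was not tested. The 6 B cell markers summed to 4.67 CPM in the library labelled LKO and 5.22 CPM in the control library, with only Cd22 measured, at a log2 ratio of 0.01. Of 4 lymphatic endothelial markers, which bear on Lyve1, Ccl21a was 2.15-fold lower and Reln, which stellate cells also express, 1.68-fold higher. Pdpn and Mmrn1 were below the filter and lower. Pdpn had 8 counts in the library labelled LKO and 32 in the control library, 5.50-fold (interval 2.48 to 13.8) lower. Mmrn1 had 46 counts in the library labelled LKO and 78 in the control library, 2.33-fold (interval 1.60 to 3.43) lower. The 5 platelet markers, which bear on Pecam1, summed to 1.34 CPM in the library labelled LKO and 0.803 CPM in the control library, with 0 measured.

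The 6 stellate cell markers, which bear on Eng, summed to 246 CPM in the library labelled LKO and 194 CPM in the control library, with none at 0. Dcn held most of this and had a log2 ratio of 0.41, and Pdgfrb was 1.69-fold (interval 1.53 to 1.86) higher. The list went both ways, with Des at a log2 ratio of 0.46, Colec11 at 0.004, Lrat at -0.18 and Rgs5 at -0.56. Of the 6 genes 1 passed 1.5-fold upward and 0 downward, and 3 and 0 did with total-count scaling. The shares of all measured genes were 10.5% and 9.76%, and 34.3% and 2.59% with total-count scaling. The 6 hepatocyte markers summed to 119551 CPM in the library labelled LKO and 161390 CPM in the control library. This lower sum depends on TMM scaling. As raw counts they held 18229378 of 131843686 in the library labelled LKO and 17890056 of 128201591 in the control library. Their median log2 ratio was -0.35 with TMM scaling and 0.07 with total-count scaling. Alb had a log2 ratio of -0.37 (positive with total-count scaling), Cps1 was 1.63-fold lower and Serpina1a 1.74-fold lower. Apob was the 1 marker of this list with a positive log2 ratio under TMM scaling, at 0.20. With total-count scaling 1 of the 6 passed 1.5-fold upward and 0 downward. Their part in the endothelial ratios was not tested.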

How the data were processed

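The values are raw read counts by gene symbol, which the authors deposited as a table for each library. TopHat, edgeR and build mm10 are named per the submitters' processing notes. The counter, gene models, versions, strand setting, multi-mapping rule and number of animals per library are not given in the sources. Reads of overlapping genes therefore cannot be told apart, and a read counted repeatedly makes an interval too narrow.

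TMM factors (edgeR 4.0.16, R 4.3.3) over all 24421 genes were 1.16 for the library labelled LKO and 0.865 for the control library. Ratios carry a 95% Clopper-Pearson interval conditional on the summed count (scipy 1.17.1), and ratios of summed counts an interval from the reciprocals of the sums. PCR duplicates are not independent molecules, so intervals cover counting error only. Coordinates, transcript lengths and GC content are from GENCODE M21 (GRCm38, the assembly of mm10), by symbol, for 10731 measured genes above 0 in both libraries. The trend with length and GC content was removed with lowess smoothing (fraction 0.3, statsmodels 0.14.6). The code was run on simulated Poisson counts with as many genes raised as lowered. These hold no spread between animals and no duplicate reads, so the run checks the code and not how well scaling and intervals suit these libraries.

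The members and lists were chosen with earlier results of these data known. Named genes are the members, Rora, and per related list the 2 highest, 2 lowest and most abundant measured genes. Marker lists add the most abundant gene and up to 3 past 1.5-fold. Plvap, Vwf, Id1, Angpt1, Angpt2, Cd34, Edn1, Pdpn, Mmrn1, Fcgr3, Fpgs and Nt5dc2 fall outside this rule and were named after their values were seen. The same holds for Des, Colec11, Lrat, Rgs5, Cplx2, Rab3c, Cd163 and Apob. Alternatives were total-count scaling, DESeq2 1.42.0 median-of-ratios, upper quartile, totals that leave out the 20 most abundant genes, other folds, means for medians, reduced groups, halved counts, exon-union length and, chosen after seeing the data, the length and GC trend, a contrast without Eng and division by RefSeq transcripts.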

Additional observations from a re-analysis of the deposited data

How the results depend on the processing

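With 1 library per group, leaving out a replicate was not possible, and depth limits Lyve1 most, whose interval spans 1. No paired analysis was possible because each group has 1 library. Median-of-ratios and upper-quartile scaling kept the sign of all 10 ratios and 0 calls past 1.5-fold. With total-count scaling the scavenger median was 0.37, a change of sign, the pan-endothelial median was 0.65 and 5 members passed 1.5-fold. Totals without the 20 most abundant genes raise every log2 ratio by 0.12, and gave a pan-endothelial median of 0.35 and 2 members past 1.5-fold, Stab2 and Eng. At a lower threshold, a log2 ratio of 0.32 either way, 6 members passed, 4 higher and 2 lower, where 22.8% of measured genes were higher and 22.7% lower. The scavenger to pan-endothelial ratio, a log2 difference of -0.46, was -0.22 with geometric means, -0.30 with Stab2 and Clec4g alone and -0.22 without Eng. Scaling between libraries cannot change the difference of medians, -0.28. In the alternatives that can change it, it stayed negative, from -0.22 to -0.14, and was -0.16 with Stab2 and Clec4g alone. None of these put another sinusoidal list in place of the scavenger genes. The other sinusoidal genes had a median of 0.12 and the other pan-endothelial genes one of 0.09. Between those lists the contrast of the members was therefore not seen. With exon-union in place of transcript length, neighbours in the order of levels per kb swapped, Clec4g with Fcgr2b in both libraries, Stab1 with Kdr in the library labelled LKO and Stab2 with Tek in the control library. Removing the length and GC trend moved the ratio of Lyve1 to 0.04 and reversed no other member's sign.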

Other observations

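Several endothelial genes were too low to be counted among the measured ones, and their counts are given as values chosen after they were seen. Cd34, a sialomucin gene of continuous endothelium, had 52 counts (0.341 CPM) in the library labelled LKO and 117 counts (1.06 CPM) in the control library, a ratio 3.10-fold (interval 2.21 to 4.38) lower. Cd34 thus stood opposite in direction to Plvap and Vwf of the same list. Edn1, which encodes the vasoconstrictor endothelin-1, had 87 counts in the library labelled LKO and 22 counts in the control library, 2.87-fold (interval 1.78 to 4.82) higher. Angpt2, the context-dependent TIE2 ligand, was 3.44-fold (interval 2.19 to 5.54) lower, and Angpt1 was 2.62-fold (interval 1.27 to 5.91) higher. All these intervals cover counting error only.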
